A study of Mus musculus with 139 samples.

Results

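The change over time in the lung response to crocidolite asbestos was measured as an interaction, the difference between crocidolite and vehicle lungs at 12 months minus the same difference at 1 month. A positive value means that crocidolite lungs stood higher against their own vehicle lungs at 12 months than at 1 month. The 4 groups were taken by exposure and time from the labels and hold 28 arrays, 20.1% of those of the series: 7 mice 12 months after 120 µg crocidolite, 8 mice 12 months after vehicle, 5 mice 1 month after crocidolite and 8 mice 1 month after vehicle. All were male C57BL/J6 mice, 7 weeks old at the start, and each received 50 µL by pharyngeal aspiration on a single occasion. The vehicle was a dispersion medium, DM, of phosphate-buffered saline with glucose, mouse serum albumin and the phospholipid DPPC, and crocidolite was given in it. Total RNA of the whole lung was read on Affymetrix arrays, 1 array per mouse in these groups. Lungs at 6 months (8 mice per group) and lungs given 80 µg multi-walled carbon nanotubes, MWCNT, at 1, 6 and 12 months (8 mice each) are used for side-by-side values.

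Crocidolite is an amphibole form of asbestos, with straight fibres that persist in the lung. Macrophages that cannot clear such fibres remain activated, and the lung answers with mucus production, scarring and repair of the airway and alveolar lining. In mice, an alternatively activated macrophage makes arginase 1, chitinase-like proteins and the resistin-like molecule Retnla. Acute phase proteins, fibrinogen among them, are known mainly as liver products that rise with inflammation. Club cells are the secretory cells of the mouse airway and carry cytochrome P450 enzymes.

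The lung markers were high in all 28 arrays, with Sftpc of type 2 alveolar cells at 12.42 to 12.72, Scgb1a1 of club cells at 12.33 to 12.79 and Ager of type 1 alveolar cells at 9.99 to 11.69 on the log2 scale. The arrays did not stand equally close to the rest. Mice are numbered here within each group in the order of deposition. The median correlation with the other arrays was 0.955 for crocidolite mouse 4 at 1 month, 0.965 for crocidolite mouse 5 at 1 month, 0.961 for DM mouse 2 at 12 months and 0.969 for DM mouse 3 at 1 month, and 0.974 to 0.985 for the others. The mean over the skeletal muscle list was 4.83 on 1 DM array at 12 months, 4.93, 7.02 and 6.99 on 3 DM arrays at 1 month and at most 3.90 on the others, and the squamous epithelium list was high on 1 DM array at 1 month. The word "replacement" carries no explanation in the labels and stands in the titles of 5 of 7 crocidolite and 3 of 8 DM arrays at 12 months, and of 3 of 5 crocidolite and 4 of 8 DM arrays at 1 month.

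The crocidolite effect differed between the times for 12 of 22180 genes, which is 0.0541% of those tested (limma, adjusted p under 0.05): 8 (0.0361%) were higher and 4 (0.018%) lower at 12 months than at 1 month. The 8 higher genes were Fga, Fgg, Pon1, Gdpd2, Aqp4, Gabrp, Zfp750 and Cyp2f2, and the 4 lower genes were Rnase2a, Arg1, Corin and Icos. The RNA is from whole lung, so fewer cells of a type and less RNA per cell cannot be told apart. The count was 3 without crocidolite mouse 4 at 1 month, 2 without crocidolite mouse 5 at 1 month and 13 without DM mouse 2 at 12 months, and without all 4 arrays named above it was 0, with 813 genes at an unadjusted p under 0.05 against 1447 (6.52% of all genes) with all arrays. Chance alone gives a share of about 0.05 at that limit, so these unadjusted counts do not by themselves show a signal. All 12 genes kept the sign of their difference in the fit without the 4 arrays and in every other alternative in which they were tested. Scaling moved the split of directions: 66.7% of the called genes were higher as deposited and 54.5% after each array was centred on its median. These shares rest on few genes: of the 12, only Fgg and Zfp750, both higher, lost their calls with centring.

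**Figure D1:**
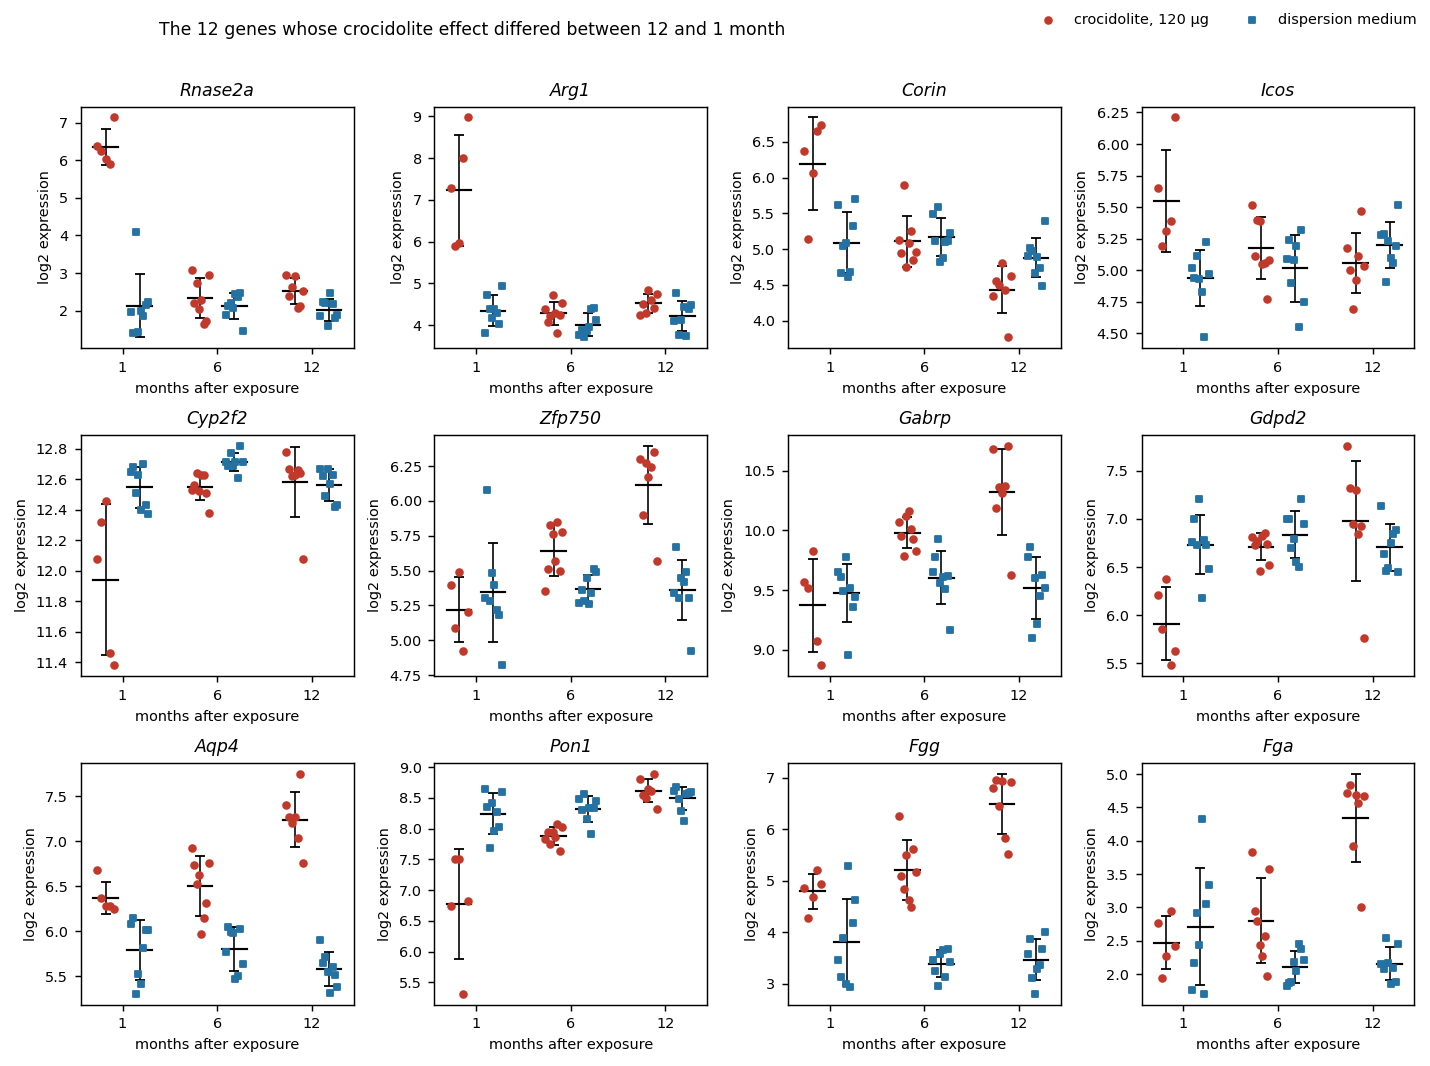
The log2 level of each of the 12 genes is plotted by mouse at 1, 6 and 12 months, with crocidolite lungs as circles to the left and DM lungs as squares to the right of each time; bars are the mean ± SD. Fga, Fgg and Aqp4 lie above all DM mice in all 7 crocidolite mice at 12 months, and Rnase2a and Arg1 lie above all DM mice in all 5 crocidolite mice at 1 month.

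Of the 3 fibrinogen chain genes, Fga and Fgg gained on DM between 1 and 12 months and Fgb had no such call. The chains assemble into fibrinogen, the precursor of the fibrin clot, and their genes lie next to each other on mouse chromosome 3. In the promoters, a match to 3 motifs of factors known to drive acute phase genes in liver was found upstream of Fga and Fgb and none upstream of Fgg. The sequences are the 250 bases before the annotated start (RefSeq, GRCm38.p6): Fga chr3:83025903-83026152 on the plus strand, Fgg chr3:83007474-83007723 on the plus strand and Fgb chr3:83049864-83050113 on the minus strand, each written 5′ to 3′ along the gene, with matches in capitals.
Fga: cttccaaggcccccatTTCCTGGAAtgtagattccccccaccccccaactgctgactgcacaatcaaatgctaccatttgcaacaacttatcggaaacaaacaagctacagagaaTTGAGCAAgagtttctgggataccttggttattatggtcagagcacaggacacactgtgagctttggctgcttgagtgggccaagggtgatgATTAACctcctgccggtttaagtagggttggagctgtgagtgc
Fgg: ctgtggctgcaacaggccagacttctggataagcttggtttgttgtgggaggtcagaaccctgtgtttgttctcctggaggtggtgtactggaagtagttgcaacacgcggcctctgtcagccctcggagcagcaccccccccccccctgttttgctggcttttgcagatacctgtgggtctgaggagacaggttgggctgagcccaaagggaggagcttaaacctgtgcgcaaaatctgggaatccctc
Fgb: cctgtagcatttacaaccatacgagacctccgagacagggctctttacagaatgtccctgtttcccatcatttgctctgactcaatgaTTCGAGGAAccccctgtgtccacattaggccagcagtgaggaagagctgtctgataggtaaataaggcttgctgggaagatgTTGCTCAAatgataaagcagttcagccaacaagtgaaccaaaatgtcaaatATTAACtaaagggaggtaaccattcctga
The motifs searched on both strands were STAT (TTCNNNGAA), C/EBP (TTGCNNAA), the HNF1 core (GTTAAT) and the TATA box (TATAAA), none of which overlapped another in these windows. Of 32851 RefSeq promoters of this length, 7.02% held the STAT letters, 9.56% the C/EBP letters, 6.43% the HNF1 core and 12.4% the TATA box, and none of the 3 promoters held the last. The matches are letters in a window and say nothing of binding, and the promoters with matches belong to a chain that gained (Fga) and to another that did not pass the test (Fgb).

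Fga, the alpha chain, had a log2 level of 3.0 to 4.83 with a median of 4.67 in the 7 crocidolite lungs at 12 months, against 1.85 to 2.55 with a median of 2.13 in the 8 DM lungs. At 1 month the 5 crocidolite lungs had 2.77, 1.95, 2.28, 2.95 and 2.42, against 1.71 to 4.32 with a median of 2.67 in DM lungs. All 7 crocidolite mice lay above every DM mouse at 12 months, as for 1.43% of all genes, and at 1 month all 5 lay within the DM range. The crocidolite effect was 2.19 ± 0.33 (SE) log2, or 4.55-fold, at 12 months (adjusted p = 2.77e-07) and -0.24 ± 0.36 at 1 month (adjusted p = 0.827). The difference between the effects was 2.42 ± 0.49 (adjusted p = 0.00956), with 2.41 (adjusted p = 0.0531) without crocidolite mouse 5 at 1 month and 2.53 (adjusted p = 0.0953) without the 4 arrays of low correlation.

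Fgg, the gamma chain, showed the largest 12-month effect of the 12 genes. Its log2 level was 5.53 to 6.96 with a median of 6.80 in crocidolite lungs and 2.81 to 4.01 with a median of 3.47 in DM lungs at 12 months. In the 1-month lungs it was 4.86, 4.28, 4.68, 5.22 and 4.93 after crocidolite, against 2.94 to 5.28 with a median of 3.67 after DM. All 7 crocidolite mice at 12 months lay above every DM mouse of that time and above all 5 crocidolite mice at 1 month, where 1.32% of all genes did the last. The effect was 3.03 ± 0.31 at 12 months (8.14-fold, adjusted p = 1.93e-13) and 0.98 ± 0.35 at 1 month (adjusted p = 0.0759), a difference of 2.04 ± 0.47 that lay close to the threshold (adjusted p = 0.0496). Leaving out 1 mouse at a time, the difference was between 1.83 and 2.20 and passed the test in 9 of 28 fits, with adjusted p up to 0.119. The call was lost without crocidolite mouse 1, 2, 3, 4 or 7 or DM mouse 1, 3, 4, 5 or 6 at 12 months, and without any crocidolite mouse or DM mouse 3, 5, 7 or 8 at 1 month.

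No other measured acute phase gene passed the interaction test. Of 13 measured members of the acute phase list, 8 rose with crocidolite at 12 months and 4 at 1 month, where 4.31% and 2.93% of all genes did so, none fell at either time, and the median interaction was 0.13, against 0.02 over all genes. Saa3, a serum amyloid A made by macrophages and epithelium, had an effect of 2.76 at 12 months and 3.91 at 1 month, and an interaction of -1.16 with a 95% interval of -2.58 to 0.26. Fgb, set beside the other chains after its values were seen, had 0.25 (adjusted p = 0.829) at 12 months and -0.40 (adjusted p = 0.718) at 1 month, and an interaction of 0.65 ± 0.57 (adjusted p = 0.898). Of other liver secretory genes, also chosen after their values were seen, Alb had an interaction of 2.00 ± 0.97 (adjusted p = 0.732), Apoa1 0.52 (adjusted p = 0.879), Ahsg 0.39 (adjusted p = 0.927) and Ttr 0.57 (adjusted p = 0.898). Among DM lungs Alb ran from 3.88 to 9.68 at 1 month and 3.73 to 5.33 at 12 months, and Fgb from 2.11 to 5.86 and 2.25 to 2.77. In crocidolite lungs Alb ran from 4.28 to 6.06 at 1 month and 4.43 to 8.4 at 12 months. DM mouse 5 at 1 month was the highest of its group for Fga (4.32) and Fgg (5.28). The part of carried-over liver or blood RNA in the fibrinogen result was not tested. The arrays come without detection calls, so the precision at the low end of the scale is unknown.

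Rnase2a and Arg1 went the other way, high in every crocidolite lung at 1 month and near the DM level at 12 months. Rnase2a, of the family of eosinophil-associated ribonucleases, had the largest interaction in size of the 12 genes. Its level at 12 months was 2.08 to 2.95 with a median of 2.51 in crocidolite lungs and 1.58 to 2.47 with a median of 2.03 in DM lungs. At 1 month it was 6.37, 6.26, 6.04, 5.91 and 7.14 in crocidolite lungs, against 1.41 to 4.08 with a median of 1.98 in DM lungs. All 5 crocidolite mice lay above every DM mouse at 1 month, including DM mouse 3 at 4.08, as for 1.23% of all genes, and 4 of 7 did so at 12 months. All 7 crocidolite mice at 12 months lay below all 5 at 1 month, as for 0.437% of all genes. The effect was 0.50 ± 0.47 (adjusted p = 0.679) at 12 months and 4.21 ± 0.51, or 18.5-fold, at 1 month (adjusted p = 2.6e-10), and the difference was -3.71 ± 0.69 (adjusted p = 0.00458). It passed the test without any 1 of the 28 mice and stood at -3.84 (adjusted p = 0.0603) without the 4 arrays of low correlation.

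No other gene of the eosinophil list passed the interaction test, and which cells held the Rnase2a RNA was not tested. Of 9 measured members of the eosinophil list, 1 rose at 12 months (4.31% of all genes) and 2 rose at 1 month (2.93% of all genes), none fell, and the median interaction was 0.20. Prg2, the eosinophil major basic protein, had 0.97 (adjusted p = 0.000264) at 12 months and -0.25 (adjusted p = 0.652) at 1 month, an interaction of 1.22 ± 0.30 in the opposite direction that missed the threshold (adjusted p = 0.0868). Rnase2b, a near copy of Rnase2a in the same family, rose by 0.92 (adjusted p = 0.00166) at 12 months and 1.02 (adjusted p = 0.00167) at 1 month, with an interaction of -0.10. Epx, eosinophil peroxidase, had interaction 0.20 (adjusted p = 0.931) and Ccr3, the eotaxin receptor, 0.12 (adjusted p = 0.976). At 1 month the effect was 0.00 for Epx and -0.08 for Ccr3. Mean levels at 1 month were low: 2.42 in crocidolite and in DM lungs for Epx, 2.6 and 2.67 for Ccr3, and 2.43 and 2.67 for Prg2. Without detection calls, an effect near 0 at such levels cannot show whether the gene changed. Prg2, Rnase2b, Epx and Ccr3 were picked for comparison after their values were seen. Ribonuclease genes of this family are similar in sequence, and whether the probes of Rnase2a also bind its copies was not tested.

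Arg1 encodes arginase 1, which splits arginine into ornithine and urea and marks alternatively activated macrophages in mice. Its level was 4.25 to 4.85 with a median of 4.5 in crocidolite lungs and 3.74 to 4.76 with a median of 4.25 in DM lungs at 12 months. At 1 month it was 7.28, 5.90, 5.97, 8.0 and 8.97 in crocidolite lungs, against 3.80 to 4.94 with a median of 4.34 in DM lungs. The 2 highest 1-month values came from mice 4 and 5, whose arrays had low correlation, and mice 2 and 3 also lay above all DM mice. The effect was 0.30 ± 0.34 (adjusted p = 0.755) at 12 months and 2.88 ± 0.37, or 7.38-fold, at 1 month (adjusted p = 2.34e-09). The difference was -2.59 ± 0.51 (adjusted p = 0.00868), with -2.39 (adjusted p = 0.0654) without mouse 4, -2.15 (adjusted p = 0.119) without mouse 5 and -1.67 without all 4 arrays of low correlation. Only Arg1, of the 12 genes, passed the test among arrays without the word replacement, with -2.71 (adjusted p = 0.0398), and it was -2.49 among arrays with the word, where no gene passed.

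No other gene of the alternative activation list had an interaction call. Of 11 measured genes, 3 rose with crocidolite at 12 months and 6 at 1 month (4.31% and 2.93% of all genes), none fell, and the median interaction was -0.38. The list's mean, Arg1 included, was 5.65 to 6.08 in crocidolite lungs and 5.08 to 5.37 in DM lungs at 12 months. At 1 month it was 6.39 to 7.09 in crocidolite lungs and 5.03 to 5.49 in DM lungs. In crocidolite lungs 6 of the 11 were lower at 12 months than at 1 month (1.03% of all genes), and none in DM lungs (0.437%). Retnla, made by alternatively activated macrophages and airway cells, was high at both times: 10.86 ± 0.25 (SD) in 7 crocidolite lungs and 7.37 ± 0.37 in 8 DM lungs at 12 months, and 11.25 ± 0.18 in 5 crocidolite lungs and 7.50 ± 0.57 in 8 DM lungs at 1 month. Its interaction was -0.26 with a 95% interval of -1.19 to 0.67. Chil4, a chitinase-like protein, had 3.24 at 12 months and 5.77 at 1 month, an interaction of -2.54 ± 0.89 that did not pass (adjusted p = 0.479), although all crocidolite mice lay above all DM mice at both times. Arg2, the other arginase, named here after its values were seen, rose by 0.77 (adjusted p = 0.0109) at 12 months and 0.74 (adjusted p = 0.035) at 1 month.

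Most club cell genes fell at 1 month and none fell at 12 months. Of 8 measured members of the list, 2 rose and none fell at 12 months, while 1 rose and 5 fell at 1 month, where 2.16% of all genes fell at 12 months and 2.83% at 1 month, and the median interaction was 0.69 against 0.02 over all genes. Cyp2f2, the mouse club cell cytochrome P450 that activates naphthalene, and Gabrp, the pi subunit of the GABA-A receptor, passed the interaction test.

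Cyp2f2 had a level of 12.08 to 12.78 with a median of 12.64 in crocidolite lungs and 12.42 to 12.67 with a median of 12.59 in DM lungs at 12 months. At 1 month crocidolite lungs had 12.08, 12.32, 12.46, 11.46 and 11.38, against 12.37 to 12.70 with a median of 12.57 in DM lungs. The 2 lowest lungs were again mice 4 and 5, and mouse 3 lay within the DM range. The effect was 0.02 ± 0.08 (adjusted p = 0.956) at 12 months and -0.60 ± 0.09, or 1.52-fold lower, at 1 month (adjusted p = 2.49e-07), a difference of 0.62 ± 0.12 (adjusted p = 0.00876). It was 0.50 (adjusted p = 0.11) without mouse 4, 0.48 (adjusted p = 0.164) without mouse 5 and 0.29 without the 4 arrays of low correlation.

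Gabrp had a level of 9.63 to 10.71 with a median of 10.36 in crocidolite lungs and 9.10 to 9.86 with a median of 9.56 in DM lungs at 12 months. At 1 month it was 9.57, 9.52, 9.83, 9.07 and 8.87 in crocidolite lungs, against 8.96 to 9.78 with a median of 9.50 in DM lungs. In 6 of 7 crocidolite mice at 12 months it lay above every DM mouse, and at 1 month the groups overlapped. The effect was 0.80 ± 0.12 (1.74-fold, adjusted p = 3.49e-07) at 12 months and -0.10 ± 0.13 (adjusted p = 0.799) at 1 month, a difference of 0.90 ± 0.18 (adjusted p = 0.00956), with 0.83 (adjusted p = 0.0757) without mouse 4, 0.78 (adjusted p = 0.12) without mouse 5 and 0.68 without the 4 arrays.

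Other club cell genes are given although they did not pass the interaction test. Scgb1a1, the main club cell secretoglobin, had 0.02 at 12 months and -0.14 at 1 month and an interaction of 0.15 (adjusted p = 0.807). Aldh1a1, Cbr2, Scgb3a2 and Cckar, named because they are the other members that fell at 1 month (after their values were seen), had interactions of 0.49 (adjusted p = 0.273), 0.36 (adjusted p = 0.184), 0.76 (adjusted p = 0.171) and 0.77 (adjusted p = 0.124). The 1 member that rose at 1 month is not among the club cell genes named here, so the named genes lean to those that fell. The mean over the list was 10.87 to 11.31 in crocidolite lungs and 10.62 to 10.83 in DM lungs at 12 months, and 9.92 to 10.84 in crocidolite lungs and 10.41 to 10.86 in DM lungs at 1 month. Crocidolite mouse 4 was the lowest at 1 month, and the list's median interaction was 0.37 without the 4 arrays of low correlation.

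Pon1, paraoxonase 1, an esterase best known as a liver product carried on high-density lipoprotein, had the lowest adjusted p of the 12 genes. Its level was 8.32 to 8.89 with a median of 8.62 in crocidolite lungs and 8.13 to 8.68 with a median of 8.58 in DM lungs at 12 months. At 1 month it was 6.75, 7.51, 7.50, 5.32 and 6.82 in crocidolite lungs, against 7.69 to 8.65 with a median of 8.32 in DM lungs. All 5 crocidolite mice lay below every DM mouse at 1 month, as for 0.329% of all genes. The 7 crocidolite mice at 12 months lay above all 5, as for 1.32% of all genes. The effect was 0.13 ± 0.17 (adjusted p = 0.802) at 12 months and -1.47 ± 0.19, or 2.77-fold lower, at 1 month (adjusted p = 2.38e-09), and the difference was 1.59 ± 0.26 (adjusted p = 0.000185). It passed without any 1 of the 28 mice and was 1.23 (adjusted p = 0.0775) without the 4 arrays of low correlation.

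The neighbouring paraoxonase genes on chromosome 6, set beside Pon1 after their values were seen, did not pass the interaction test. Pon3 rose by 0.34 (adjusted p = 0.00103) at 12 months and had 0.00 at 1 month, with an interaction of 0.34 (adjusted p = 0.416), and the interaction of Pon2 was -0.02. In the list of esterases, cytochromes and aryl hydrocarbon response genes, 7 of 15 measured members fell and none rose at 1 month, where 2.83% of all genes fell, with a median of -0.73. At 12 months 1 rose and 2 fell, where 4.31% of all genes rose and 2.16% fell, with a median of -0.06. The list's median interaction was 0.53, and Pon1 was its only member past the test.

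Aqp4 was the only gene of the 12 that rose with crocidolite at both times. It encodes a water channel of the basolateral membrane of airway epithelium, better known from brain astrocytes. Its level was 6.76 to 7.75 with a median of 7.27 in crocidolite lungs and 5.32 to 5.90 with a median of 5.58 in DM lungs at 12 months, and 6.68, 6.37, 6.28, 6.28 and 6.25 in crocidolite lungs against 5.31 to 6.15 with a median of 5.92 in DM lungs at 1 month. Every crocidolite mouse lay above every DM mouse at both times, as for 1.43% of all genes at 12 months and 1.23% at 1 month. Every crocidolite mouse at 12 months lay above every crocidolite mouse at 1 month, as for 1.32% of all genes. The effect was 1.66 ± 0.16 (3.17-fold, adjusted p = 1.23e-15) at 12 months and 0.57 ± 0.17 (1.49-fold, adjusted p = 0.0271) at 1 month, and the difference was 1.09 ± 0.23 (adjusted p = 0.0202). It was 1.10 (adjusted p = 0.191) without the 4 arrays of low correlation. Leaving out crocidolite mouse 6 at 12 months gave 1.01 (adjusted p = 0.0777), and leaving out crocidolite mouse 4 or 5 at 1 month gave 1.07 (adjusted p = 0.0757) and 1.06 (adjusted p = 0.113). The within-label values differed more, with 1.54 among arrays without the word replacement and 0.59 among arrays with it. The other lung water channels Aqp5 and Aqp1, chosen after their values were seen, had interactions of 0.46 and 0.14 and did not pass.

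Zfp750 encodes a transcription factor of squamous epithelial differentiation. Its level was 5.57 to 6.35 with a median of 6.24 in crocidolite lungs and 4.92 to 5.67 with a median of 5.38 in DM lungs at 12 months. At 1 month it was 5.40, 5.09, 5.49, 4.92 and 5.20 in crocidolite lungs, against 4.82 to 6.08 with a median of 5.29 in DM lungs. The highest DM value at 1 month, 6.08, came from mouse 2, whose mean over the squamous epithelium list was 6.47. The effect was 0.75 ± 0.13 (adjusted p = 9.23e-06) at 12 months and -0.13 ± 0.14 (adjusted p = 0.746) at 1 month, a difference of 0.88 ± 0.19 (adjusted p = 0.0279). The difference was 0.77 (adjusted p = 0.116) without DM mouse 2 at 1 month, and 0.89 (adjusted p = 0.00898) without all arrays high in muscle or squamous genes. The call was also lost without crocidolite mouse 1, 3, 4, 5 or 6 or DM mouse 8 at 12 months, and without crocidolite mouse 4 or 5 at 1 month, with adjusted p between 0.0512 and 0.136. None of the 12 measured squamous genes passed the test at 12 months, at 1 month or in the interaction, and the list's mean was 2.67 to 3.11 in crocidolite lungs and 2.55 to 3.16 in DM lungs at 12 months, and 2.72 to 3.12 in crocidolite lungs and 2.60 to 6.47 in DM lungs at 1 month.

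Gdpd2, a glycerophosphodiester phosphodiesterase described in osteoblasts, was lower with crocidolite at 1 month and did not differ by the test at 12 months. Its level was 5.76 to 7.76 with a median of 6.95 in crocidolite lungs and 6.45 to 7.13 with a median of 6.70 in DM lungs at 12 months, and 6.21, 5.86, 6.38, 5.48 and 5.63 in crocidolite lungs against 6.18 to 7.21 with a median of 6.75 in DM lungs at 1 month. The spread among crocidolite lungs at 12 months was wide, with 3 mice above and 1 below all DM mice. The effect was 0.27 ± 0.15 (adjusted p = 0.367) at 12 months and -0.82 ± 0.17 (adjusted p = 0.000215) at 1 month, a difference of 1.09 ± 0.23 (adjusted p = 0.0116). Leaving out crocidolite mouse 4 or 5 at 1 month gave 0.98 (adjusted p = 0.0807) and 1.02 (adjusted p = 0.113), and leaving out crocidolite mouse 1 at 12 months gave 0.96 (adjusted p = 0.0559). The difference was 0.85 (adjusted p = 0.74) without the 4 arrays of low correlation, 0.66 (adjusted p = 0.649) among arrays without the word replacement and 1.19 (adjusted p = 0.936) among arrays with it, and it passed in 9 of 15 alternatives.

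Corin, the serine protease that activates the precursor of atrial natriuretic peptide in the heart, was high at 1 month. Its level was 3.77 to 4.80 with a median of 4.5 in crocidolite lungs and 4.48 to 5.39 with a median of 4.90 in DM lungs at 12 months, and 6.37, 5.14, 6.07, 6.65 and 6.74 in crocidolite lungs against 4.61 to 5.70 with a median of 5.07 in DM lungs at 1 month. Mouse 2 was the only crocidolite lung within the DM range at 1 month. The effect was -0.45 ± 0.22 (adjusted p = 0.266) at 12 months and 1.10 ± 0.24 (2.14-fold, adjusted p = 0.000816) at 1 month, a difference of -1.55 ± 0.33 (adjusted p = 0.0164), with -1.44 (adjusted p = 0.0807) without mouse 4, -1.41 (adjusted p = 0.12) without mouse 5, -1.44 (adjusted p = 0.065) without crocidolite mouse 6 at 12 months and -1.19 without the 4 arrays of low correlation. Genes of cardiac muscle, which the pulmonary veins of mice carry, were low with crocidolite: 11 of 13 measured members fell at 12 months and 2 at 1 month (2.16% and 2.83% of all genes), none rose, and none passed the interaction test (median -0.41). The list's mean was 5.90 to 6.86 in crocidolite lungs and 6.97 to 8.42 in DM lungs at 12 months, and 5.31 to 7.24 in crocidolite lungs and 6.58 to 8.37 in DM lungs at 1 month. The part of cardiac muscle in the Corin result was not tested.

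Icos, the inducible costimulator of activated T cells, kept its call in the fewest fits of the lower genes. Its level was 4.69 to 5.47 with a median of 5.03 in crocidolite lungs and 4.91 to 5.52 with a median of 5.21 in DM lungs at 12 months, and 5.65, 5.19, 5.31, 5.39 and 6.21 in crocidolite lungs against 4.47 to 5.22 with a median of 4.96 in DM lungs at 1 month. All but mouse 2 lay above the DM range at 1 month. The effect was -0.14 ± 0.11 (adjusted p = 0.613) at 12 months and 0.62 ± 0.12 (1.53-fold, adjusted p = 0.000216) at 1 month, a difference of -0.75 ± 0.17 (adjusted p = 0.0358) that was -0.59 (adjusted p = 0.367) without mouse 5 and passed in 16 of 28 fits that left out 1 mouse. The call was lost without crocidolite mouse 2, 3 or 4 or DM mouse 1, 2, 4 or 8 at 12 months, and without crocidolite mouse 1, 4 or 5 or DM mouse 5 or 6 at 1 month. Of 16 measured T cell genes, 1 rose and 1 fell at 12 months and 4 rose and 3 fell at 1 month, where 4.31% of all genes rose and 2.16% fell at 12 months, and 2.93% rose and 2.83% fell at 1 month. The 1-month risers besides Icos were Foxp3 and Ctla4 of regulatory T cells and Il7r, the receptor of interleukin 7, with 1.19, 0.95 and 0.82, and their interactions of -0.57, -0.70 and -0.48 did not pass the test; they were named after their values were seen. The 3 genes that fell at 1 month were Cd8a and Cd8b1, the chains of the CD8 coreceptor, and Lef1, a transcription factor of naive T cells, with -0.69, -0.77 and -0.62, also named after their values were seen. The median interaction of the T cell list was 0.04.

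The interaction can also be read as the time change in crocidolite lungs minus that in DM lungs. Between 1 and 12 months 955 genes (4.31%) changed in crocidolite lungs, 727 (3.28%) higher and 228 (1.03%) lower at 12 months, and 248 genes (1.12%) changed in DM lungs, 151 (0.681%) higher and 97 (0.437%) lower. With centred arrays the share of higher genes was 53.9% in crocidolite lungs, against 76.1% as deposited, and 49.4% in DM lungs, against 60.9% as deposited. All 12 interaction genes were among the crocidolite time changes and none among the DM time changes. The crocidolite time change is part of the interaction, so the first count follows largely from how the genes were picked. Having none among the DM changes is near the share of all genes, 1.12%. Among the 12 genes, the largest time changes in crocidolite lungs were -3.83 for Rnase2a (adjusted p = 1.28e-07), with -0.11 in DM lungs, and -2.70 for Arg1, with -0.12 in DM lungs. The share of genes that changed in crocidolite lungs was 1.85% without crocidolite mouse 4 at 1 month. That in DM lungs was 0.618% without DM mouse 7 at 12 months or without DM mouse 3 at 1 month, 0.73% without DM mouse 4 at 1 month, 1.77% without DM mouse 2 at 12 months and 3.85% without the arrays high in muscle or squamous genes.

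At 6 months the crocidolite effect lay between the values at 1 and 12 months for 10 of the 12 genes. These genes were picked for the gap between those times, so a 6-month value inside it was likely beforehand. Panel genes without a call went both ways, with Clca1 and Kdr between and Mmp12 and Gpnmb not. Fga had -0.24, 0.69 and 2.19 log2 at 1, 6 and 12 months, Fgg 0.98, 1.82 and 3.03, and Gabrp -0.10, 0.38 and 0.80. The effect on Pon1 was -1.47, -0.43 and 0.13, and on Cyp2f2 -0.60, -0.16 and 0.02, so most of the gap to DM was gone by 6 months. The 2 exceptions were Rnase2a with 4.21, 0.21 and 0.50 and Arg1 with 2.88, 0.27 and 0.30, both of which were already near DM at 6 months. For Aqp4, with 0.57, 0.70 and 1.66, most of the gain came after 6 months.

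**Figure D2:**
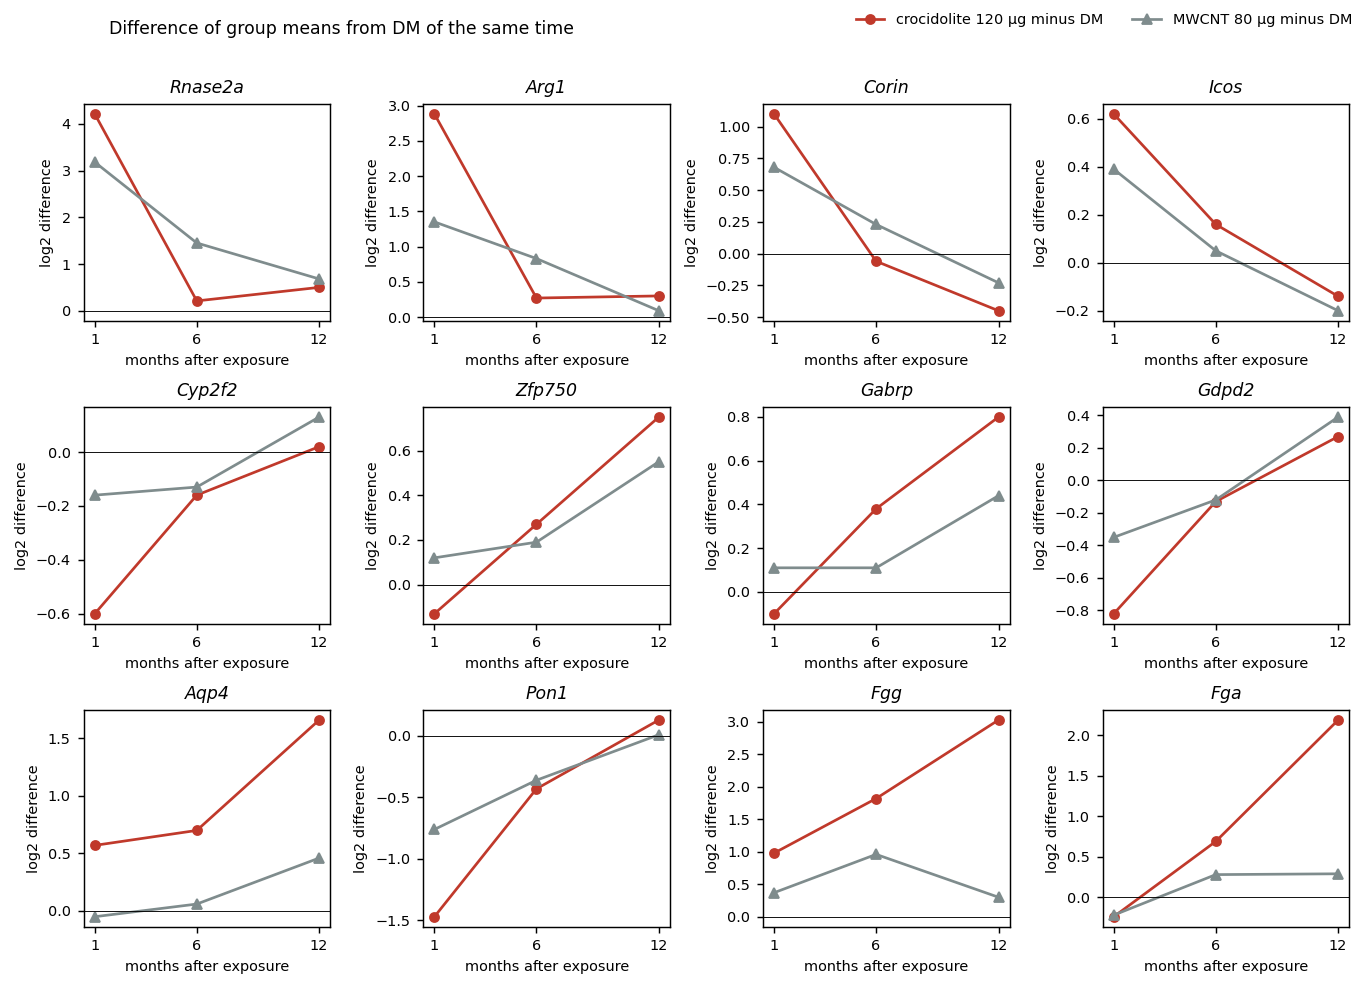
For each of the 12 genes, the log2 difference from DM is drawn at 1, 6 and 12 months for crocidolite and for 80 µg MWCNT. Fga reaches 2.19 with crocidolite and 0.29 with MWCNT at 12 months, and Rnase2a starts at 4.21 and 3.18 at 1 month.

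The effects of 80 µg MWCNT on these genes were measured against the same DM lungs. For Fga the MWCNT effects were -0.22, 0.28 and 0.29 at 1, 6 and 12 months, and for Fgg 0.37, 0.96 and 0.30. Rnase2a had 3.18, 1.45 and 0.68, Arg1 1.35, 0.83 and 0.09, and Pon1 -0.76, -0.36 and 0.01, each nearer 0 at 12 months than at 1 month. Tested directly, the difference between the time changes in crocidolite and MWCNT lungs passed the test for none of 22180 genes (0%, limma), with 2572 genes (11.6%) at an unadjusted p under 0.05. The difference, crocidolite minus MWCNT, was 1.92 for Fga and 2.11 for Fgg (adjusted p = 0.194 each), with 95% intervals of 0.94 to 2.89 and 1.19 to 3.04. The doses differ in mass, 120 µg against 80 µg.

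Most of the crocidolite response did not pass the test for a change between the times. At 12 months 1434 genes (6.47%) differed from DM, 955 higher and 479 lower, and at 1 month 1277 genes (5.76%), 649 higher and 628 lower. The 1-month share was 3.33% without crocidolite mouse 4 and 2.83% without mouse 5. Of these, 607 were called at both times, which is 42.3% of the 12-month calls and 47.5% of the 1-month calls, and all 607 had the same direction at both. The share of higher genes among the 12-month calls was 66.6% as deposited and 51% with centred arrays, and that among the 1-month calls was 50.8% and 54.4%. The direction of the point estimate was shared for 93.3% of the 12-month calls and 92.9% of the 1-month calls, against 61% of all genes. Among the 12 interaction genes, 5 were 12-month calls, 8 were 1-month calls, Aqp4 was both, and 8 had point estimates of opposite sign at the 2 times.

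**Figure D3:**
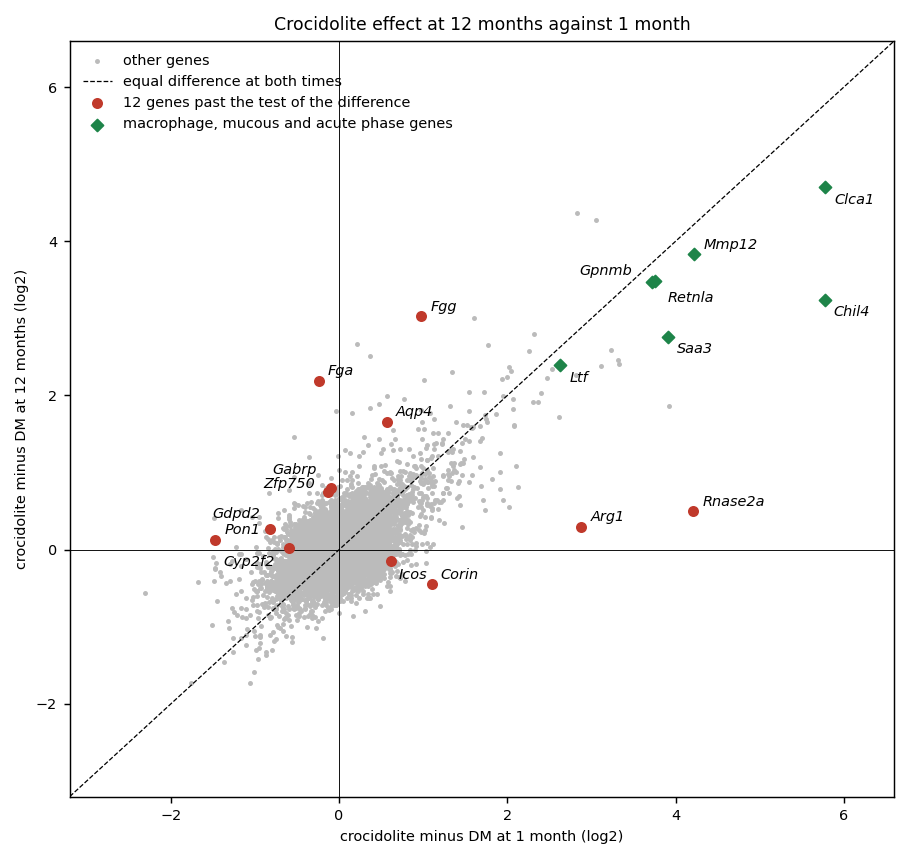
Each point is a gene, with its log2 difference between crocidolite and DM lungs at 12 months on the vertical axis and at 1 month on the horizontal axis; the dashed line marks equal effects. The 12 interaction genes are red, and 7 genes of macrophages, mucous cells and the acute phase, which were high at both times, are green; Gpnmb is at 3.47 at 12 months and 3.72 at 1 month, and Clca1 at 4.70 and 5.78.

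Several genes with large effects were high at both times. Mmp12, the macrophage elastase, stood at 9.15 ± 0.40 (SD, n = 7) in crocidolite lungs and 5.31 ± 0.26 (n = 8) in DM lungs at 12 months, and at 9.64 ± 0.63 (n = 5) and 5.43 ± 0.26 (n = 8) at 1 month. Its interaction was -0.38 with a 95% interval of -1.45 to 0.69, and that of Gpnmb, a transmembrane glycoprotein of lipid-laden macrophages, was -0.25 with an interval of -1.21 to 0.71. All crocidolite mice lay above all DM mice at both times for Clca1, Chil4, Retnla, Mmp12, Gpnmb, Ctsk, Saa3, Ltf and Hmox1, where 1.43% of all genes did so at 12 months and 1.23% at 1 month. The intervals are wide: for Clca1, a secreted protein of mucous cells, the interaction was -1.08 with an interval of -3.01 to 0.85, and for the cathepsin Ctsk -0.92 with an interval of -1.71 to -0.14 that leaves out 0 before adjustment. Kdr, a vascular growth factor receptor of endothelium, was lower at both times, with -0.48 at 12 months and -0.67 at 1 month, with an interaction of 0.19 and an interval of -0.12 to 0.51.

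**Figure D4:**
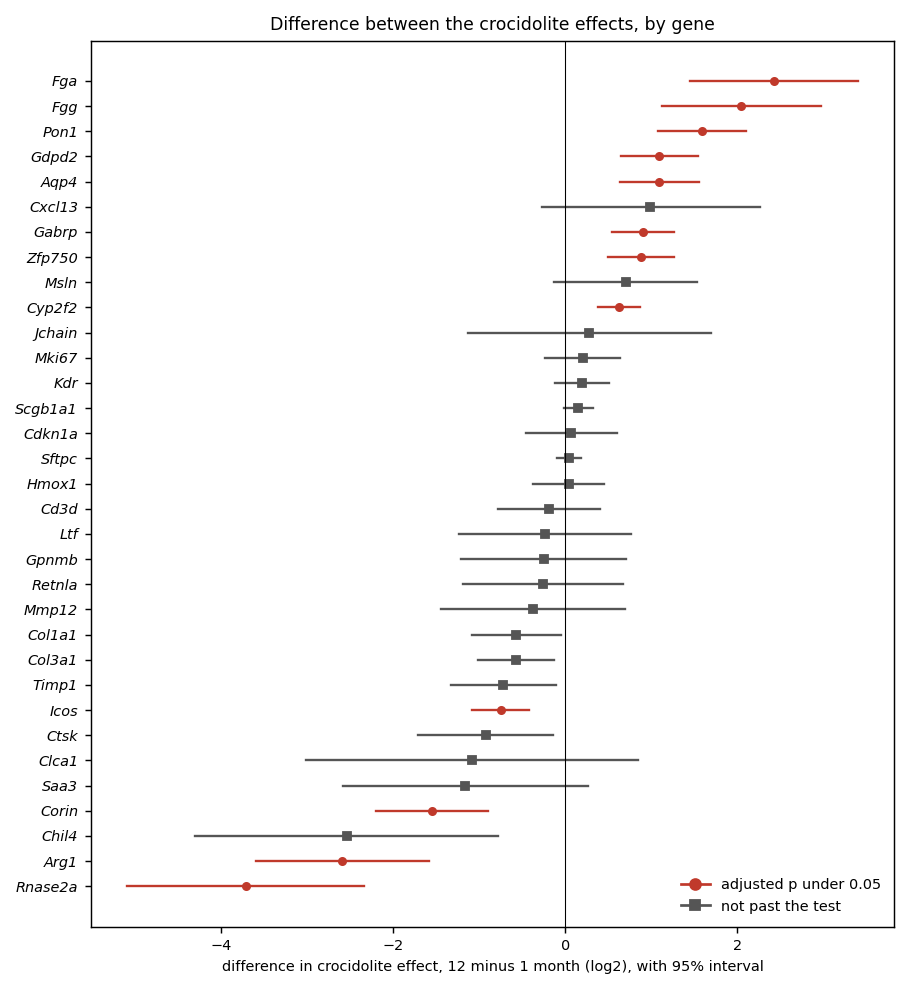
The difference in crocidolite effect, 12 minus 1 month, is drawn in log2 with its 95% interval (not adjusted for multiple tests) for the 12 genes past the test and 21 panel genes that did not pass. The intervals differ in width, as for Kdr (-0.12 to 0.51) and Clca1 (-3.01 to 0.85).

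Other panel genes filled in the picture without passing the interaction test. Col1a1 and Col3a1, chains of fibrillar collagen, each had an interaction of -0.57, with intervals of -1.08 to -0.05 and -1.02 to -0.13, and Timp1, an inhibitor of metalloproteases, had -0.72 with an interval of -1.33 to -0.11. Col3a1 stood at 8.05 ± 0.36 in crocidolite lungs and 8.08 ± 0.29 in DM lungs at 12 months, and at 9.46 ± 0.33 in crocidolite lungs and 8.92 ± 0.25 in DM lungs at 1 month. It was thus lower at 12 months in both arms, with -1.41 in crocidolite lungs and -0.84 (adjusted p = 0.000213) in DM lungs. Jchain, the joining chain of secreted antibody, rose by 2.22 at 12 months and 1.94 at 1 month, and Mki67, a marker of dividing cells, by 0.81 at 12 months and 0.61 at 1 month. Msln, the mesothelial surface protein mesothelin, had 0.79 (adjusted p = 0.0764) at 12 months and 0.09 at 1 month, and an interaction of 0.70.

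Of the 53 gene lists, 6 held a gene past the interaction test, and 8 of 596 measured members passed (1.34%, against 0.0541% of all genes). The lists were chosen with earlier results of these data known, so the higher share among their members cannot be read as a result. Aqp4, Gdpd2, Zfp750 and Corin were in no list. The median effect over all genes was -0.01 at each time. The list medians of the interaction lay within 0.2 of 0 for 35 lists and above 0 for 32. Of all genes, 4.31% rose and 2.16% fell at 12 months, and 2.93% rose and 2.83% fell at 1 month. Mucous cell genes rose for 10 of 14 members at 12 months and 11 of 14 at 1 month, with medians of 1.56 and 1.48, and lipid-laden macrophage genes for 11 of 16 at each time, with medians of 0.69 and 0.71. Endothelial genes fell for 10 of 16 at each time, with medians of -0.33 and -0.43.

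**Figure D5:**
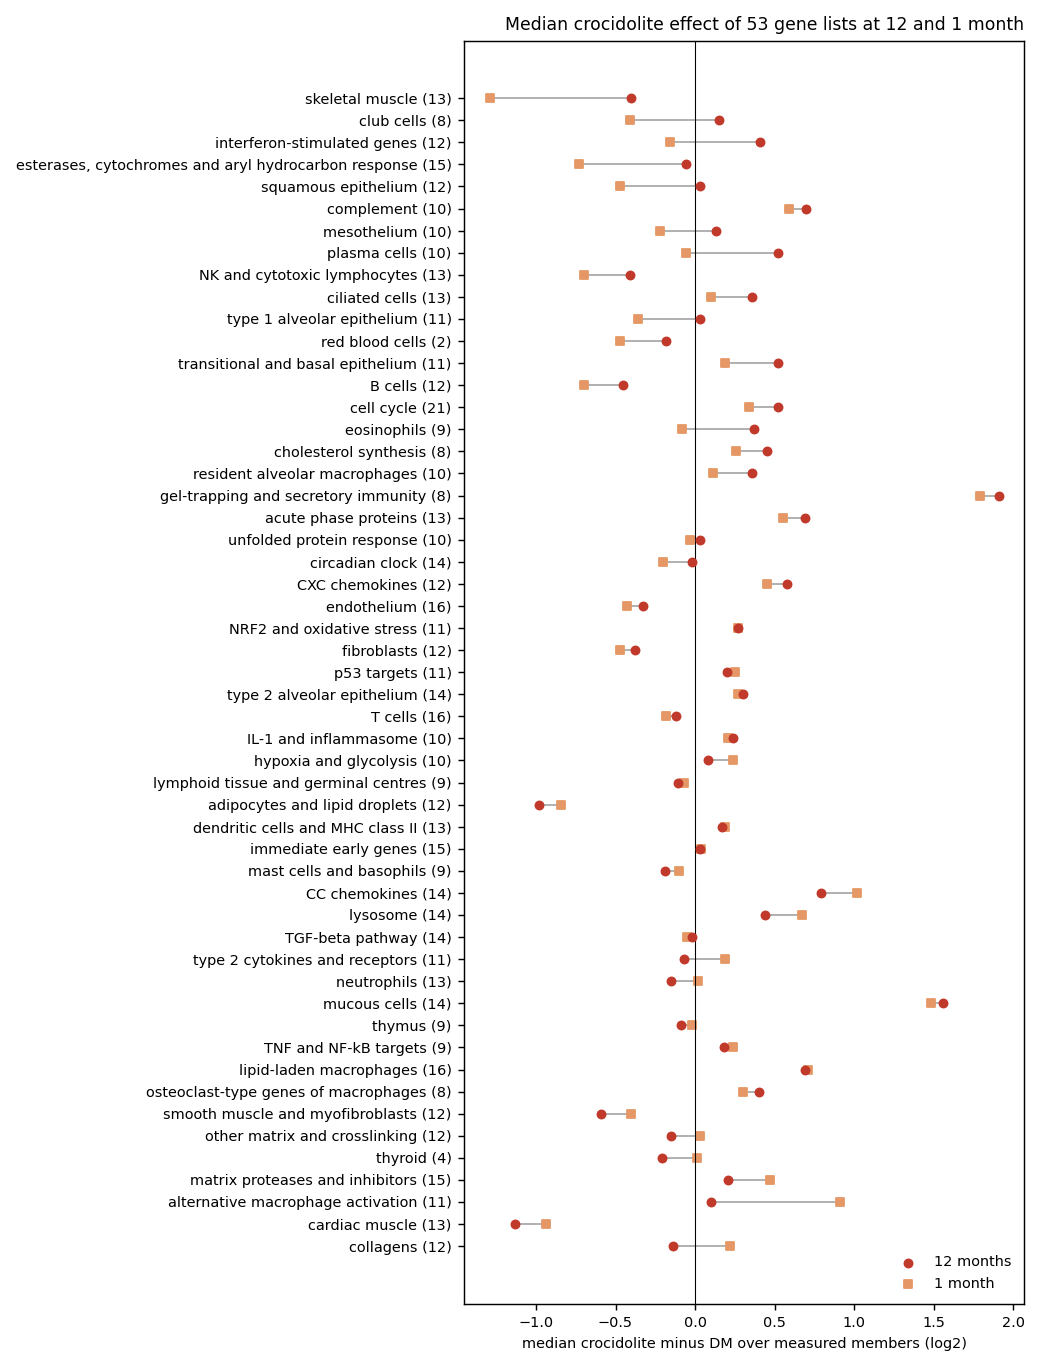
The median log2 difference between crocidolite and DM lungs over the measured members of each of the 53 lists is drawn at 12 months and at 1 month. The club cell list is at 0.15 and -0.41, and the mucous cell list at 1.56 and 1.48.

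Several lists had different counts at the 2 times while no member passed the interaction test. Cell cycle genes rose for 16 of 21 members at 12 months and 2 of 21 at 1 month, where 4.31% and 2.93% of all genes rose, yet their medians were 0.52 and 0.34 and the median interaction was 0.20. Ciliated cell genes rose for 6 of 13 at 12 months and none at 1 month (median interaction 0.32), and interferon-stimulated genes for 4 of 12 at 12 months, with none higher and 1 lower at 1 month (median interaction 0.58). In the ciliated list 7 of 13 members were also higher at 12 months than at 1 month in DM lungs, and 11 of 13 in crocidolite lungs. Collagen genes had a median interaction of -0.47, with 2 of 12 higher at 1 month and none called at 12 months. Their median interaction was -0.88 among arrays without the word replacement and -0.09 among arrays with it. The skeletal muscle list, at 0.91, and the squamous list, at 0.51, had medians of 0.05 and 0.06 without the arrays high in those genes.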

How the data were processed

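Total RNA of whole mouse lung was measured on 1 Affymetrix array per mouse, with 139 arrays of 138 mice in 18 groups; 1 mouse of another group had 2 arrays, which were averaged. The deposited values are log2 expression per feature, between -0.05 and 13.276, and the submitters' processing notes name RMA, oligo and limma without versions or roles. A genome build was not given in the sources used here. Array medians over all features ran from 4.009 to 4.336, so the deposited log2 values did not share 1 distribution, and both centring and quantile scaling were tried. Of 41345 features, 23521 had 1 gene symbol, 1814 several and 16010 none by the platform annotation, and 23328 of the named features matched a RefSeq gene. Where features shared a gene, only that of highest mean entered the fit, so 1341 were dropped and 22180 genes remained.

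A mean per group was fitted over all 18 groups with limma 3.58.1 in R 4.3.3 (120 residual degrees of freedom), moderated with eBayes, two-sided, with Benjamini-Hochberg adjustment over all genes and a threshold of 0.05. Figures were made with matplotlib 3.10.9 and pandas 2.3.3 in Python 3.11.15. The fit was tested on simulated data for the interaction, with 50 genes changed at each size. Of these 18% were called at 1.5-fold, 78% at 2-fold, 100% at 4-fold and 98% at 8-fold, with 10 false calls among 22180 genes. The simulation used normal noise with the same spread in every group. Real spreads differed: in crocidolite lungs at 1 and 12 months the SD was 0.89 and 0.19 for Pon1, and 0.38 and 0.63 for Gdpd2. The simulated rates may therefore not hold for the real arrays, some of which had low correlation. Mice are separate animals by the labels, and the number of arrays limits the precision.

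Genes are named by rule: up to 12 highest and 12 lowest past the interaction test, up to 2 past it per list, and a panel of 22 measured genes. The members, the panel and the lists were chosen with earlier results of these data known. Genes named outside the rule were picked after their values were seen. Alternatives were quantile scaling, centring, a filter at a mean of 4, the mean over features, only the groups compared, array weights, leaving out arrays of low correlation, trended and robust moderation, the word replacement (as a covariate, without it, with it), a spline of the title number with 3 degrees of freedom, and each mouse left out. Added after seeing the data were leaving out the 4 arrays under a correlation of 0.97, the array median as a covariate, and leaving out arrays with a mean over 4.5 on the skeletal muscle or squamous list.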

Additional observations from a re-analysis of the deposited data

Results flagged for a closer look

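The crocidolite effect at 12 months minus that at 1 month passed limma's test of the difference itself for 12 genes. The log2 differences were 2.42 for Fga, 2.04 for Fgg, 1.59 for Pon1, 1.09 for Gdpd2, 1.09 for Aqp4, 0.90 for Gabrp, 0.88 for Zfp750, 0.62 for Cyp2f2, -3.71 for Rnase2a, -2.59 for Arg1, -1.55 for Corin and -0.75 for Icos.

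Single mice stood far from the rest of their group, by the gap to the nearest mouse as a share of the group's range, in 9 gene and group combinations (6.82% of those tested), where chance gives about 1 in 20. Among crocidolite lungs, Cyp2f2 was lowest in mouse 7 at 12 months (12.08), and at 1 month Aqp4 was highest in mouse 1 (6.68), Jchain lowest in mouse 2 (5.84) and Col1a1 highest in mouse 4 (9.59), whose array had the lowest correlation of the 28. Among DM lungs, mouse 2 at 12 months had Clca1 at 4.75 and Chil4 at 4.13, and mouse 4 at 12 months had Cxcl13 at 9.33, each the highest of its group. DM mouse 3 at 1 month was highest for Clca1 (8.10) and for Rnase2a (4.08), both genes that were higher in every crocidolite mouse at that time. The medians of the 8 DM mice at 1 month were 4.59 for Clca1 and 1.98 for Rnase2a.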

How the results depend on the processing

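The number of genes past the interaction test was 12 as reported, 19 after quantile scaling, 19 with the spline of the title number, 3 without the 3 arrays of the series below a correlation limit of 0.961 (crocidolite mouse 4 at 1 month and 2 MWCNT arrays), 2 among arrays without the word replacement, 0 among arrays with it (limma; 1038 at an unadjusted p under 0.05) and 0 without the 4 arrays of low correlation. The other alternatives stayed within 1.5 times by number, though not always with the same genes. Chance alone takes a share of about 0.05 of all genes past an unadjusted p of 0.05, so the 1038 does not by itself show a signal. With only the groups compared, Fgg, Gdpd2, Gabrp, Zfp750, Cyp2f2 and Icos lost their calls. Leaving out 1 mouse gave 2 to 33: 2 without crocidolite mouse 5 and 3 without mouse 4 at 1 month, 33 without mouse 2, 30 without mouse 3, and 27 without crocidolite mouse 7 at 12 months. The other comparisons are given as the percentage of all genes called. Leaving out 1 mouse gave 5.23% to 7.06% for crocidolite against DM at 12 months, 2.83% to 7.61% at 1 month, 1.85% to 5.87% for the time change in crocidolite lungs, 0.618% to 1.77% for that in DM lungs, 0 to 1 genes for the difference from MWCNT and 2 to 13 list members. Crocidolite against DM at 12 months had 10.3% with array weights, 2.78% without the word and 1.3% with it. At 1 month it had 1.63% with only the groups compared, 3.66% with array weights, 3.51% without those 3 arrays, 1.73% without the word, 1.18% with it and 1.07% without the 4 arrays. The time change in crocidolite lungs had 1.19% with only the groups compared, 2.04% without those 3 arrays, 1.17% without the word, 1.56% with it and 0.857% without the 4 arrays. That in DM lungs had 1.83% after quantile scaling, 1.89% centred, 0.541% with only the groups compared, 2.48% with array weights, 0.284% without the word, 0.00451% with it, 1.81% with the spline, 2.01% with the array median as a covariate and 3.85% without arrays high in muscle or squamous genes. The difference from MWCNT had 1 call with only the groups compared, 1 with array weights, 4 without the word and 2 without the muscle or squamous arrays. List members past the interaction test were 8, against 3 without those 3 arrays, 1 without the word, 0 with it and 0 without the 4 arrays. Fits within the word leave fewer mice, and the cause of the other shifts was not tested. The 12 called genes kept the sign of their interaction in every alternative that tested them and with each mouse left out. Some uncalled panel genes did not: leaving out 1 mouse gave -0.19 to 0.57 for Jchain, -0.06 to 0.24 for Cdkn1a and -0.11 to 0.2 for Hmox1. With centred arrays, the majority of the time changes in DM lungs went from higher to lower. Of the named genes' values under alternatives, 486 kept their side of the threshold, 72 lost the call and 1 (Chil4, with only the groups compared) gained it. The named genes include panel genes without an interaction call, and for those staying uncalled counts as keeping their side. Of 15 alternatives Pon1 and Arg1 passed in 12, and Aqp4, Gabrp, Cyp2f2 and Corin in 10. Gdpd2 passed in 9, Zfp750 in 8, Icos in 7 and Fgg in 5. Fga and Rnase2a passed in 11 of the 14 that tested them. Arrays carry no read depth, and without detection calls the signal over background is unknown. No paired analysis was possible because the replicate numbers only follow the order of deposition.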

Other observations

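A further 9 genes had an adjusted p between 0.05 and 0.1 in the interaction and were named after their values were seen. Ceacam10, of the carcinoembryonic antigen family, had 1.84 at 12 months and 0.37 at 1 month (interaction 1.47, adjusted p = 0.0716), and Esr1, the estrogen receptor alpha, had 0.82 at 12 months and -0.10 at 1 month (interaction 0.92, adjusted p = 0.0868). The others were Itih2, Slc39a14, Fxyd4, Prg2, Tlr5, Slc4a5 and Cd209d.

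The mucous cell genes were not uniform over time, although none passed the interaction test. Slc26a4, the anion exchanger pendrin, was at 6.54 ± 0.30 in 7 crocidolite lungs and 4.68 ± 0.61 in 8 DM lungs at 12 months, and at 8.88 ± 0.76 in 5 crocidolite lungs and 4.96 ± 0.45 in 8 DM lungs at 1 month (SD). Its interaction was -2.06 (adjusted p = 0.161), while that of Agr2, a protein folding factor of mucous cells, was 0.28 (adjusted p = 0.95). Serpinb5, a serpin of epithelium, was at 5.36 ± 0.31 in crocidolite lungs and 2.85 ± 0.24 in DM lungs at 12 months, and at 3.47 ± 0.41 in crocidolite lungs and 3.10 ± 1.40 in DM lungs at 1 month. Its interaction was 2.14 (adjusted p = 0.184), and 1 DM mouse at 1 month had 6.47. Secreted mucosal genes Dmbt1 and Gp2 rose by 4.36 and 4.27 at 12 months and by 2.83 and 3.05 at 1 month, with interactions of 1.53 (adjusted p = 0.184) and 1.22 (adjusted p = 0.401). These genes were picked after their values were seen.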
